A study of Homo sapiens with 4 samples.

Results

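Activins and transforming growth factor beta (TGF-beta) are secreted dimers, and 10 genes for their subunits, receptors and extracellular binding proteins were followed here in RNA sequencing of NUGC3, a human gastric cancer cell line. The 10 genes are INHBA, INHBB, TGFB1 and TGFB2 for ligands, TGFBR1, TGFBR2 and ACVR1B for receptors, and FST, FSTL3 and FSTL1 for follistatin and related proteins. They were taken by gene symbol from 53777 rows of the deposited table with an Ensembl gene identifier, and each symbol matched 1 row. The genes were picked with their values in these libraries already known, so their differences between the groups are given as a description, with no test.

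There were 2 NIPBL-knockdown libraries and 2 scramble libraries. Cells of the first group had been transfected with a short hairpin RNA against NIPBL, hairpin 1 in one library and hairpin 7 in the other, and cells of the second group with a scramble control. All 4 labels carry the letters DOX without saying what they stand for, and scramble 2 has the suffix R1, perhaps a repeat of scramble 1. No label gives the hairpin sequence, the time after transfection, or the number of cultures. The SDs and p-values therefore cover the spread between the sequenced libraries and no more, and that spread could be technical. In the knockdown pair it also includes any difference between hairpins 1 and 7, which the fit treats as replicates. NIPBL loads cohesin onto chromosomes, and the comparison asks which transcripts differ when it is lowered.

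Each ligand dimer binds a pair of type II and type I receptor kinases, and the activated type I receptor phosphorylates SMAD proteins that enter the nucleus with SMAD4. ACVR1B and TGFBR1 are type I receptors that signal through SMAD2 and SMAD3, while bone morphogenetic protein (BMP) receptors act through SMAD1, SMAD5 and SMAD9. Follistatin, the FST product, and the FSTL3 product wrap around activin and block its receptor sites. FSTL1 encodes a secreted glycoprotein that shares the follistatin-type domain but is not a strong activin trap. In epithelial cells the pathway is known for growth arrest, matrix production and changes in cell shape.

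In the NIPBL-knockdown libraries the activin antagonist gene FST was at 14.2% of its scramble mean, while its relative FSTL3 was higher, at 420% of its scramble mean, and the ligand gene TGFB2 was at 285%. The most abundant member, the activin subunit gene INHBA, differed little with hairpin 1 and was lower with hairpin 7. The receptor genes TGFBR2 and ACVR1B were at 105% and 98.4% of their scramble means. Among 124 other genes of the pathway, 8 of 78 tested passed the test, against 2.56% of all genes tested. Of the 8, 6 were higher and 2 lower, with ID3, ID2, TGFBI and CDKN1A the 4 with the highest log2 changes. These other genes were chosen with earlier results of these data known, and ID3 and ID2 were among the widest differences. The calls rest on both scramble libraries.

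The 250 bases before the RefSeq start sites were searched for motifs in the 3 members with the largest log2 changes in the fit, FST, FSTL3 and TGFB2, and in INHBA, the most abundant. Sequences are RefSeq's on GRCh38.p14, and all 10 genes had an entry. The windows lie at chr5:53480379-53480628 (plus strand) for FST, chr19:676142-676391 (plus strand) for FSTL3, chr1:218345086-218345335 (plus strand) for TGFB2 and chr7:41703091-41703340 (minus strand) for INHBA. GENCODE 29 places some transcript starts further upstream than RefSeq, so 220 of the 250 bases of FST, all of those of INHBA and 27 of those of FSTL3 lie inside the gene body as GENCODE draws it. Since the FST bases inside the gene are annotated as 5′ UTR there, that window is described but not shown, and the other 3 are. Capitals mark matches to 4 motifs, searched on both strands. The core of the SMAD-binding element was written as CAGAC. The site of AP-1 factors was written loosely as TGANTCA, with any base allowed at N. The E-box that binds MYC with MAX was written as CACGTG. The TATA box, which places the start of transcription, was written as TATAAA.
FSTL3: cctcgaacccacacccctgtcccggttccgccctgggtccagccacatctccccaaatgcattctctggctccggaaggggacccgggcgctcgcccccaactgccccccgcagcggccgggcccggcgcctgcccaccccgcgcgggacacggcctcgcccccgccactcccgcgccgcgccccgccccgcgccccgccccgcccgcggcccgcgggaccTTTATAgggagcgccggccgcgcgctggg
TGFB2: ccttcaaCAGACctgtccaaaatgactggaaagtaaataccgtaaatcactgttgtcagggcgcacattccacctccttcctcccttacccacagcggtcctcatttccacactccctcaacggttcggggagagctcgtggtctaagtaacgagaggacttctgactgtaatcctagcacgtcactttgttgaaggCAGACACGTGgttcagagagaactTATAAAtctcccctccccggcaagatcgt
INHBA: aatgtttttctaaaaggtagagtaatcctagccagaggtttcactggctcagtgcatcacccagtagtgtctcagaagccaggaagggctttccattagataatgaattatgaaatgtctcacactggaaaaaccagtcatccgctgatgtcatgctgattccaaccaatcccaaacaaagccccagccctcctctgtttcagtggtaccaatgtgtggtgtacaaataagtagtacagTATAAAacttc

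The FST window held 1 match to the loose AP-1 pattern, TGATTCA, with T at the open position. It began 160 bases before the RefSeq start, within the part that GENCODE annotates as 5′ UTR. FSTL3 and TGFB2 each held a TATA match beginning 29 bases before the start, on the antisense strand in FSTL3, and INHBA held one beginning 11 bases before it. TGFB2 also held CAGAC at 243 and 53 bases before the start, and CACGTG at 49, which shares 1 base with the nearer CAGAC. The TGFB2 distances are from the RefSeq start, and GENCODE 29 starts the gene further downstream, at 218346235. Over 35116 RefSeq windows of the same length, 38.0% held CAGAC, 6.57% an AP-1 match, 6.34% CACGTG and 10.7% a TATA match. The windows of FSTL3, FST, TGFB2 and INHBA had a GC content of 80.0%, 60.0%, 50.4% and 42.8%, against a median of 58.0% over all windows. These matches describe letters only, and binding was not measured.

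Values are the authors' FPKM, a read abundance per transcript length and library size, which sum to between 682076 and 749446 per library. The read depth is unknown, so no counting intervals are given. NIPBL was at 7.27 FPKM with hairpin 1 and 9.17 FPKM with hairpin 7, against 23.92 and 23.11 FPKM in the scramble libraries (log2 change -1.42 ± 0.14, SE; adjusted p by limma = 0.0218). All 6 epithelial markers, among them EPCAM and KRT8, were above 1 FPKM in every library, and their summed level was 5083 and 6060 FPKM in the knockdown and 6037 and 6084 FPKM in the scramble libraries. None of 7 markers of gastric mucous and chief cells reached 1 FPKM in all libraries, and 6 of the 7 stayed below 1 FPKM in every library. The exception was TFF1, a secreted mucosal peptide gene, at 2.48 and 1.02 FPKM in the knockdown libraries, against 0 and 0.17 FPKM in the scramble libraries. The summed level of the 7 was 2.87 and 1.23 FPKM in the knockdown and 0.21 and 0.82 FPKM in the scramble libraries, and its part in the results was not tested. The summed level of 6 fibroblast markers was between 5.76 and 9.59 FPKM, nearly all of it COL1A1, with COL1A2 and COL3A1 listed at 0. The summed level of 5 immune markers was 32.5 and 38.0 FPKM in the knockdown and 13.3 and 17.9 FPKM in the scramble libraries, nearly all of it CD68, with PTPRC listed at 0 in all 4. The 2 endothelial markers in the table, VWF and CDH5, summed to at most 0.96 FPKM. In RNA from a whole culture, fewer cells that express a gene and less RNA per cell cannot be told apart.

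**Figure D1:**
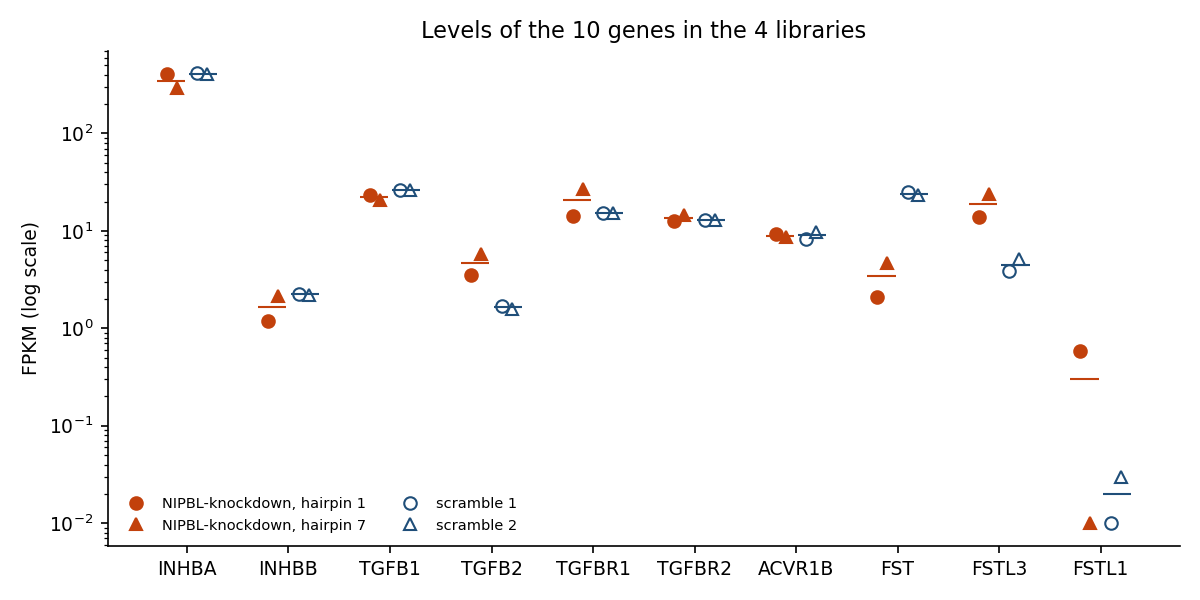
FPKM of the 10 genes in each library on a log axis. Filled symbols are the NIPBL-knockdown libraries (circle hairpin 1, triangle hairpin 7), open symbols the scramble libraries, and short lines the group means (n = 2 each). FST is lower and FSTL3 and TGFB2 are higher in both knockdown libraries, and INHBA stands above the others in every library.

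INHBA (ENSG00000122641, GRCh38 chromosome 7, 41667168 to 41705834, minus strand, GENCODE 29) encodes the beta A subunit, which pairs with itself to form activin A. It was at 404.90 FPKM with hairpin 1 and 292.04 FPKM with hairpin 7, against 414.87 and 403.55 FPKM in the scramble libraries. The hairpin 1 value lay between the scramble values and the hairpin 7 value below both, so the groups overlapped. Its mean was 348 ± 79.8 FPKM in knockdown and 409 ± 8.0 FPKM in scramble libraries (SD, n = 2 each), with a log2 change of -0.25 ± 0.18 (SE) on the log2(FPKM + 1) scale. By mean level it ranked 232 in knockdown and 208 in scramble libraries among the 12834 genes that averaged 1 FPKM or more. Of the summed FPKM of the 4 ligand genes, INHBA made up 93.5% and 91.1% in knockdown and 93.3% and 93.0% in scramble libraries. The antisense gene INHBA-AS1, which overlaps it, was listed at 0 in 3 libraries and at 0.08 FPKM with hairpin 7.

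INHBB (ENSG00000163083, chromosome 2, 120346143 to 120351808, plus strand) encodes the beta B subunit of activin B. It was at 1.20 FPKM with hairpin 1 and 2.13 FPKM with hairpin 7, against 2.27 and 2.21 FPKM in the scramble libraries. Both knockdown values were below both scramble values, but the hairpin 7 value by little. INHBA was 337 and 137 times INHBB in the knockdown libraries and 183 times in each scramble library, so transcripts of the beta A subunit were in large excess throughout.

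TGFB1 (ENSG00000105329, chromosome 19, 41301587 to 41353911, minus strand) encodes the most widely expressed TGF-beta. It was at 23.40 FPKM with hairpin 1 and 20.76 FPKM with hairpin 7, against 25.99 and 26.52 FPKM in the scramble libraries. Both knockdown values were lower, with a mean at 84.1% of scramble. In GENCODE 29 the gene body of TGFB1 overlaps HNRNPUL1 on the opposite strand, which was at 120.22 to 146.12 FPKM, so how reads were divided between them depends on a strand setting that is not given.

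TGFB2 (ENSG00000092969, chromosome 1, 218346235 to 218444619, plus strand) encodes a second TGF-beta, which needs the co-receptor TGFBR3 for efficient receptor binding. It was at 3.55 FPKM with hairpin 1 and 5.79 FPKM with hairpin 7, against 1.71 and 1.57 FPKM in the scramble libraries. Both knockdown libraries were above both scramble libraries, and the gap was wider with hairpin 7. Its mean was 4.67 ± 1.58 FPKM in knockdown and 1.64 ± 0.0990 FPKM in scramble libraries (SD, n = 2 each), with a log2 change of 1.07 ± 0.24 (SE). TGFB2 was the least abundant of the 4 ligand genes in scramble libraries and stood above INHBB in both knockdown libraries. Of the summed FPKM of TGFB1 and TGFB2, TGFB2 made up 13.2% and 21.8% in knockdown and 6.17% and 5.59% in scramble libraries, so TGFB1 remained the larger in all 4.

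TGFBR1 (ENSG00000106799, chromosome 9, 99104038 to 99154192, plus strand) encodes the type I receptor of TGF-beta. It was at 14.38 FPKM with hairpin 1 and 27.03 FPKM with hairpin 7, against 15.27 and 15.21 FPKM in the scramble libraries. The hairpin libraries lay on opposite sides of the scramble libraries. The log2 change of 0.35 ± 0.29 (SE) became -0.08 with the hairpin 7 library left out and 0.79 with the hairpin 1 library left out. The log2 difference between the hairpins was 0.87, wider than in 95.4% of the genes tested.

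TGFBR2 (ENSG00000163513, chromosome 3, 30606502 to 30694142, plus strand), the type II receptor gene of TGF-beta, was at 12.61 FPKM with hairpin 1 and 14.41 FPKM with hairpin 7, against 12.82 and 12.92 FPKM in the scramble libraries. ACVR1B (ENSG00000135503, chromosome 12, 51951667 to 51997078, plus strand), the main type I receptor gene of activin, was at 9.26 FPKM with hairpin 1 and 8.57 FPKM with hairpin 7, against 8.29 and 9.83 FPKM in the scramble libraries. The groups overlapped for both genes, and their log2 changes were 0.06 ± 0.11 and -0.02 ± 0.13 (SE). The ratio of TGFBR1 to TGFBR2 was 1.14 and 1.88 in knockdown libraries and 1.19 and 1.18 in scramble libraries, so only the hairpin 7 library stood apart.

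FST (ENSG00000134363, chromosome 5, 53480409 to 53487134, plus strand) encodes follistatin, which binds activin almost irreversibly. It was at 2.10 FPKM with hairpin 1 and 4.73 FPKM with hairpin 7, against 24.96 and 23.26 FPKM in the scramble libraries. The groups were far apart, and the hairpin 1 library was the lower of the knockdown libraries. Its mean was 3.42 ± 1.86 FPKM in knockdown and 24.1 ± 1.20 FPKM in scramble libraries (SD, n = 2 each), with a log2 change of -2.57 ± 0.30 (SE). In the order of mean levels FST stood above 17.8% of the genes tested in knockdown and above 68.1% in scramble libraries.

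FSTL3 (ENSG00000070404, chromosome 19, 676365 to 683399, plus strand) encodes a secreted relative of follistatin with fewer follistatin-type domains, which also binds activin. It was at 13.94 FPKM with hairpin 1 and 23.95 FPKM with hairpin 7, against 3.91 and 5.11 FPKM in the scramble libraries. Both knockdown libraries lay above both scramble libraries, opposite to FST. Its mean was 18.9 ± 7.08 FPKM in knockdown and 4.51 ± 0.849 FPKM in scramble libraries (SD, n = 2 each), with a log2 change of 1.82 ± 0.28 (SE). The log2 difference between the scramble libraries was 0.32, wider than in 91.5% of the genes tested.

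Because FPKM is scaled to length, the antagonist genes can be set beside each other. The sum of FST and FSTL3 was 16.0 FPKM with hairpin 1 and 28.7 FPKM with hairpin 7, against 28.9 and 28.4 FPKM in the scramble libraries. The hairpin 7 sum thus lay between the scramble sums, while the hairpin 1 sum was lower. FST made up 13.1% and 16.5% of the sum in knockdown libraries and 86.5% and 82.0% in scramble libraries, so the leading antagonist transcript was FSTL3 in knockdown and FST in scramble libraries. INHBA was 193 and 61.7 times FST in knockdown libraries, against 16.6 and 17.3 times in scramble libraries. Against the sum of both antagonists INHBA was 25.2 times with hairpin 1 and 10.2 times with hairpin 7, and 14.4 and 14.2 times in the scramble libraries, so by this measure the hairpins lay on opposite sides of scramble.

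**Figure D2:**
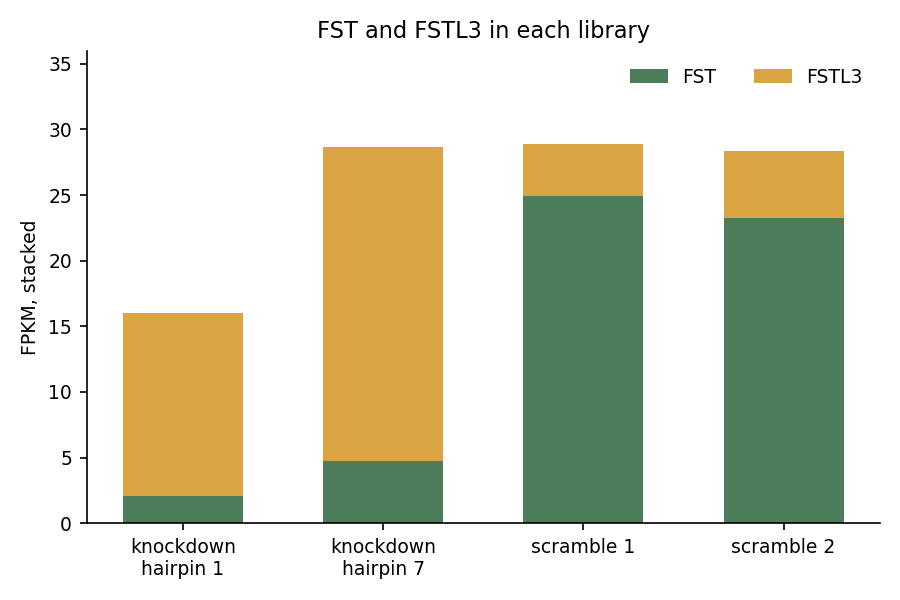
FPKM of FST (lower part of each bar) and FSTL3 (upper part) in each library, stacked from 0. FST makes up 13.1% and 16.5% of the bar in the knockdown libraries and 86.5% and 82.0% in the scramble libraries.

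FSTL1 (ENSG00000163430, chromosome 3, 120392293 to 120451253, minus strand) was at 0.59 FPKM with hairpin 1 and 0.01 FPKM with hairpin 7, against 0.01 and 0.03 FPKM in the scramble libraries. Of the 4 libraries the one with hairpin 1 stood apart, and the gene did not reach the mean of 1 FPKM needed to enter the fit. MMP2, a gelatinase gene of the ligand processing list, had a like profile, at 0.91 FPKM with hairpin 1 and 0.02 FPKM with hairpin 7, and was listed at 0 in both scramble libraries. MMP2 was singled out after its values were seen.

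The other 9 members entered the fit of 12834 genes, of which limma called 2.56%, and no call is given for a member. The groups did not overlap for 5 of the 9, against 60.3% of all genes tested. Of these 5, 2 were above and 3 below scramble, against 29.5% and 30.8% of all genes. A log2 change of at least 1 in either direction was seen for 3 of the 9, against 4.11% of all genes. Since these values were known when the members were picked, the counts are only a description. The median log2 change was -0.02 over the 9 members and -0.01 over all genes tested.

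In the scramble libraries the order of mean FPKM ran INHBA, TGFB1, FST, TGFBR1, TGFBR2, ACVR1B, FSTL3, INHBB, TGFB2 and FSTL1. No pair of neighbours in this order overlapped between the scramble libraries. The neighbours closest in ratio were TGFB1 and FST, at 25.99 and 26.52 FPKM for TGFB1 and 24.96 and 23.26 FPKM for FST. The SD of the log2 difference over all genes tested was 0.45 between the hairpins and 0.28 between the scramble libraries. FST, FSTL3 and TGFB2 differed between the hairpins by 0.89, 0.74 and 0.58 on the log2 scale, hairpin 7 being the higher for each. INHBA differed by -0.47 and INHBB by 0.51. Each hairpin is 1 library, so these differences have no replicate check.

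**Figure D3:**
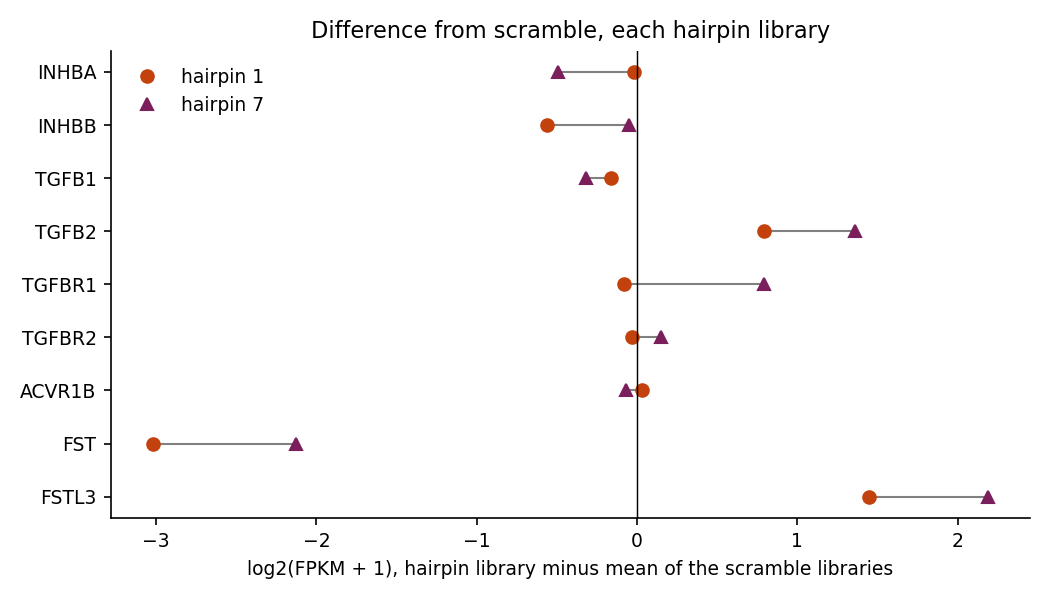
Difference of each hairpin library from the mean of the scramble libraries, in log2(FPKM + 1), for the 9 members that entered the fit. Circles are hairpin 1 and triangles hairpin 7, joined by a line. FST lies at -3.02 and -2.13, FSTL3 at 1.45 and 2.19 and TGFB2 at 0.79 and 1.36, while the hairpins part for TGFBR1 (-0.08 and 0.79).

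The genes whose profile was most like that of FST were LYPD5, ANKRD1, SERPINB2 and KRT5. Likeness was the root mean square difference of log2(FPKM + 1), centred on each gene's mean, over 4 libraries and 11505 protein-coding genes, and it was 0.156, 0.268, 0.325 and 0.380 for these genes. LYPD5, a membrane protein gene, was at 30.11 and 43.39 FPKM in knockdown libraries, against 197.95 and 206.27 FPKM in scramble libraries. ANKRD1, an ankyrin repeat gene induced by YAP, was at 53.95 and 88.55 FPKM in knockdown libraries, against 287.61 and 296.41 FPKM in scramble libraries. None of the 11505 genes came within 0.1 of FST. Within the pathway lists the nearest were COL4A1 at 0.758 and TGFBR3 at 0.858, which also lay below scramble but by less. Likeness was not scaled to the size of a change, so a gene with small differences has more genes near it. For INHBA, with a log2 change of -0.25, 897 genes lay within 0.1. The 4 nearest were ICT1, WDR82, C12orf66 and MRPL3, at 0.0078 to 0.0141, and in each the hairpin 7 library alone was clearly lower, as with WDR82 at 29.60 and 21.41 FPKM in knockdown libraries, against 30.03 and 29.31 FPKM in scramble libraries.

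Other genes of the pathway were grouped by role in 8 lists with 124 entries, all of which had a row in the table. Of these, 78 averaged 1 FPKM or more and were tested, 46 were below it, and 16 were listed at 0 in all libraries. At an unadjusted p under 0.05 by limma, 21 of the 78 were higher and 7 lower. Over all 12834 genes tested, 3390 were under 0.05 in either direction, the background for such counts in the lists below. Of the 78, 6 rose and 2 fell (limma, adjusted p under 0.05), against 1.45% of all genes tested called higher and 1.11% called lower. Their median log2 change was 0.13, against -0.01 over all genes tested. These calls rest on both scramble libraries: without scramble 1, without scramble 2 or with the scramble libraries averaged, 0 of the 78 passed by limma.

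None of the 11 remaining ligand genes of the TGF-beta and activin class reached the mean of 1 FPKM, so INHBA, INHBB, TGFB1 and TGFB2 were the only ones that did. GDF11, a ligand that follistatin also binds, was at 0.16 and 0.27 FPKM in knockdown libraries, against 1.08 and 1.01 FPKM in scramble libraries. INHA, the alpha subunit gene whose pairing with a beta subunit makes inhibin, was at 0.85 and 1.79 FPKM in knockdown libraries, against 0.52 and 0.33 FPKM in scramble libraries. Both genes were singled out after their values were seen and were not tested. Of 18 BMP and GDF ligand genes 6 were tested and 0 passed (2 lower at an unadjusted p under 0.05), with a median log2 change of -0.23. BMP6 was at 0.91 and 0.67 FPKM in knockdown libraries, against 2.33 and 2.07 FPKM in scramble libraries (limma, adjusted p = 0.0916). GDF15 and BMP2 had log2 changes of -0.68 and -0.33. The 2 lower genes, BMP6 and GDF15, averaged 0.79 and 0.93 FPKM in knockdown libraries and entered the test only through the scramble libraries.

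Of 14 other receptor and co-receptor genes 9 were tested, 1 fell and 0 rose, with a median log2 change of 0.03. TGFBR3, which encodes betaglycan and presents TGFB2 to its receptors, was at 2.75 and 2.78 FPKM in knockdown libraries, against 6.62 and 6.17 FPKM in scramble libraries. Its log2 change was -0.97 ± 0.13 (SE; adjusted p by limma = 0.0432). In both knockdown libraries TGFBR3 lay below and TGFB2 above scramble, and a link between them was not tested. ENG, an endothelial co-receptor gene, was at 17.97 and 11.56 FPKM in knockdown libraries, against 20.40 and 20.72 FPKM in scramble libraries. ACVR1, a BMP type I receptor gene, was at 12.48 and 17.94 FPKM in knockdown libraries, against 11.06 and 11.23 FPKM in scramble libraries. Neither passed, and in both the hairpin 7 library lay further from scramble. The log2 change of ENG, -0.48, was -0.18 without hairpin 7 and -0.78 without hairpin 1. That of ACVR1, 0.40, was 0.15 without hairpin 7 and 0.64 without hairpin 1. With 1 knockdown library left, the spread between knockdown libraries is not measured, so no test is given.

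Of 15 other extracellular antagonist genes 4 were tested and 0 passed (1 higher at an unadjusted p under 0.05; limma). NBL1, which encodes a BMP antagonist, was at 35.72 and 35.16 FPKM in knockdown libraries, against 29.39 and 29.03 FPKM in scramble libraries (adjusted p = 0.15, limma). NOG, which encodes the BMP trap noggin, was at 2.38 FPKM with hairpin 1 and 6.50 FPKM with hairpin 7, on either side of 5.06 and 4.60 FPKM in the scramble libraries. TWSG1, which encodes a modulator of BMP availability, was likewise on either side, at 33.91 and 57.24 FPKM in knockdown libraries, against 41.61 and 39.55 FPKM in scramble libraries. For NOG and TWSG1 the hairpin 1 library was thus the lower and the hairpin 7 library the higher.

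Of 17 genes for latent TGF-beta binding, activation and ligand processing 12 were tested and 0 passed (3 higher at an unadjusted p under 0.05; limma), with a median log2 change of 0.28. ITGB6, whose integrin releases TGF-beta from its latent complex, was at 4.95 and 3.39 FPKM in knockdown libraries, against 1.30 and 1.35 FPKM in scramble libraries (limma, adjusted p = 0.0669). Its partner ITGAV was at 46.59 and 50.70 FPKM in knockdown libraries, against 35.33 and 39.71 FPKM in scramble libraries (limma, adjusted p = 0.128). FURIN, the protease that cleaves ligand precursors, was at 57.47 and 43.13 FPKM in knockdown libraries, against 33.59 and 32.86 FPKM in scramble libraries (limma, adjusted p = 0.113). All 3 lay above both scramble libraries without passing. The log2 change of FURIN, 0.57, was 0.37 without hairpin 1 and 0.77 without hairpin 7.

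All 23 genes of SMADs and intracellular regulators were tested, 1 rose and 0 fell, with a median log2 change of 0.09. PMEPA1, a TGF-beta-induced inhibitor of SMAD2 and SMAD3, was at 323.94 and 258.77 FPKM in knockdown libraries, against 119.38 and 112.43 FPKM in scramble libraries. Its log2 change was 1.31 ± 0.14 (SE; adjusted p by limma = 0.0269). SMAD7, the inhibitory SMAD, was at 5.76 and 8.76 FPKM in knockdown libraries, against 2.24 and 2.01 FPKM in scramble libraries, and missed the threshold (limma, adjusted p = 0.0531, and 0.0479 with a pseudocount of 0.1). NEDD4L, a ubiquitin ligase for SMAD2 and SMAD3, was at 141.57 and 133.80 FPKM in knockdown libraries, against 105.05 and 102.21 FPKM in scramble libraries (adjusted p by limma = 0.0862).

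Of 19 target genes of SMAD2 and SMAD3, all tested, 3 rose and 1 fell, with a median log2 change of 0.75. At an unadjusted p under 0.05 by limma, 9 were higher and 3 lower, against 3390 of all 12834 genes tested in either direction. This list was written with earlier results of these data known, so its counts and median are not independent evidence of a direction. IL11 and ANGPTL4, among the 19, were under 1 FPKM in both scramble libraries and entered the test only through the knockdown libraries, where IL11 was at 2.21 and 4.09 FPKM and ANGPTL4 at 1.00 and 8.30 FPKM. TGFBI, a matrix protein gene named for its induction by TGF-beta, was at 20.13 and 20.02 FPKM in knockdown libraries, against 2.26 and 3.29 FPKM in scramble libraries. Its log2 change was 2.49 ± 0.17 (SE; adjusted p by limma = 0.0123). CDKN1A, the cell cycle inhibitor p21, was at 66.80 and 100.96 FPKM in knockdown libraries, against 16.01 and 17.67 FPKM in scramble libraries (log2 change 2.22 ± 0.21, SE; adjusted p by limma = 0.0218). The transcription factor gene BHLHE40 was at 51.11 and 90.12 FPKM in knockdown libraries, against 16.41 and 17.35 FPKM in scramble libraries (log2 change 1.95 ± 0.27, SE; adjusted p by limma = 0.0444). It lost its call with quantile normalization (limma, adjusted p = 0.0536) and without a mean trend (limma, adjusted p = 0.0632).

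The collagen gene COL4A1 went the other way, at 35.69 and 23.68 FPKM in knockdown libraries, against 82.78 and 81.28 FPKM in scramble libraries. Its log2 change was -1.46 ± 0.20 (SE; adjusted p by limma = 0.0443, and 0.0632 without a mean trend). Of the 19 genes, 15 lay above both scramble libraries and 4, COL4A1 among them, below both, against 29.5% and 30.8% of all genes tested. A place above both need not be a sizeable difference: HMGA2 and KLF10, among the 15, had log2 changes of 0.01 and 0.10. CCN2, among the 4 below, had a log2 change of -0.85 ± 0.16 (SE; adjusted p by limma = 0.0672). CDKN1A is also a well-known target of p53 and BHLHE40 of hypoxia, and the cause of their differences was not tested. Activity of the SMAD proteins was not measured.

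Of 7 target genes of SMAD1 and SMAD5, 5 were tested and 2 rose, with a median log2 change of 0.43. ID3 and ID2, inhibitors of helix-loop-helix factors, were known to be among the widest differences of these libraries when the list was written and are not independent evidence of its direction. ID3 was at 35.96 and 37.75 FPKM in knockdown libraries, against 3.28 and 2.49 FPKM in scramble libraries (log2 change 3.29 ± 0.14, SE; adjusted p by limma = 0.00609). ID2 was at 12.83 and 22.56 FPKM in knockdown libraries, against 1.02 and 1.28 FPKM in scramble libraries (log2 change 3.07 ± 0.28, SE; adjusted p by limma = 0.0217). ID1 was at 329.13 and 227.91 FPKM in knockdown libraries, against 210.50 and 224.68 FPKM in scramble libraries, so with hairpin 7 it was close to scramble, while MSX2 had a log2 change of 0.43 and did not pass.

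**Figure D4:**
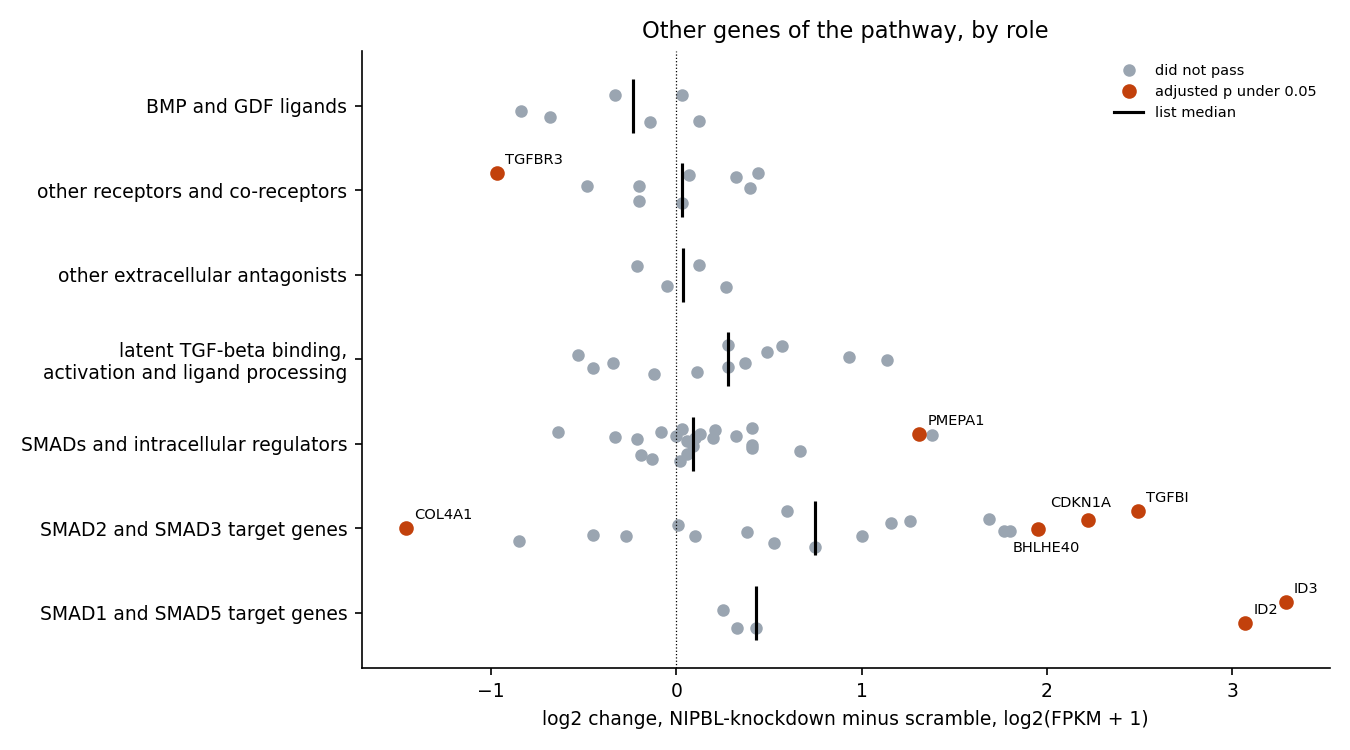
Log2 change (NIPBL-knockdown minus scramble, log2(FPKM + 1)) of the 78 tested genes of the other pathway lists, 1 dot per gene and 1 row per list with tested genes, with list medians as black lines and vertical scatter only to part the dots. Coloured dots passed the test (6 higher, 2 lower). Medians run from -0.23 for BMP and GDF ligands to 0.75 for targets of SMAD2 and SMAD3.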

How the data were processed

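Gene-level FPKM, given with 2 decimals, were made by the authors. The submitters' processing notes name STAR, an aligner, and RSEM, a quantifier. Versions, genome build, annotation and strand setting were not given in the sources used here. Low values come in steps of 0.01 FPKM, too coarse for whole reads to be read back, so depth is unknown. Of 344810 rows, 291033 without a gene identifier (8.47% to 9.27% of a library's FPKM) were left out.

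The test was limma 3.58.1 under R 4.3.3, by lmFit and trended eBayes on log2(FPKM + 1) of the 12834 genes that averaged 1 FPKM or more, two-sided, Benjamini-Hochberg adjusted over all of them, at 0.05. Log2 changes are knockdown minus scramble and understate those of low genes. Percentages of scramble compare mean FPKM. An exact permutation test of 2 against 2 libraries cannot go below p = 0.333. The fit was tested on simulated data.

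The members and lists were chosen with earlier results of these data known. Named genes were the 10 members, NIPBL, each list's 3 tested genes of smallest p and all that passed, and the nearest profiles to FST and INHBA. From the lists, IL11, ANGPTL4, HMGA2, KLF10, CCN2, ID1, MMP2, GDF11 and INHA were named outside this rule. Coordinates are GENCODE 29, promoter windows RefSeq GRCh38.p14.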

Additional observations from a re-analysis of the deposited data

How the results depend on the processing

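The count of all genes called, 328, was 351 with a pseudocount of 0.1, 368 with a mean of at least 5 FPKM, 303 with quantile normalization and 242 without a mean trend. It was 1 with no filter (4275 at an unadjusted p under 0.05) and 0 with the scramble libraries averaged (975 at an unadjusted p under 0.05), and between 0 and 4532 with 1 library left out (limma; 1060 and 1052 at an unadjusted p under 0.05 without scramble 1 or 2). Pathway genes called higher, 6, became 0 with no filter or with the scramble libraries averaged, and lay between 0 and 27 with 1 library left out. Those called lower, 2, became 0 under the same settings, 1 with a mean of at least 5 FPKM and 1 without a mean trend, and lay between 0 and 10 with 1 library left out. NIPBL lost its call with no filter (limma, adjusted p = 0.118), with the scramble libraries averaged (0.267) and without scramble 1 (0.257) or scramble 2 (0.261).

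The median log2 change of the tested members, -0.02, was -0.05 with quantile normalization and between -0.13 and 0.07 with 1 library left out. The log2 change of FST lay between -3.02 and -2.13 and that of FSTL3 between 1.45 and 2.19 over all alternatives, while that of TGFB2 was 1.42 with a pseudocount of 0.1. Of 23 genes named from the lists or as the target, 10 that had not passed did so without the hairpin 1 library and 7 without the hairpin 7 library, while all 9 that had passed lost their call without scramble 1 or scramble 2. NOG, at -0.21 with all libraries, lay between -0.79 without the hairpin 7 library and 0.36 without the hairpin 1 library. TWSG1, at 0.12, lay between -0.25 without the hairpin 7 library and 0.49 without the hairpin 1 library. BMP2, at -0.33, lay between -0.45 and -0.20 with 1 library left out and passed in none of these fits. The cause of these shifts was not tested. Where a knockdown library is left out, the other is taken to vary as much as the scramble pair. No paired analysis was possible because the labels give no replicate numbers shared by the groups.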
